A study of Mus musculus with 2 samples.

Results

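The genes of de novo fatty acid synthesis were followed here in single cells from the mouse lung. The set is 10 genes of the 31053 in the count tables, chosen by name as the lipogenic enzymes Acly, Me1, Acaca, Fasn, Scd1, Scd2, Elovl1 and Elovl6 and their regulators Srebf1 and Mid1ip1, and each was found by its Ensembl identifier. The cells came from C57BL/6JRj mice aged 3 months (young) or 18 months (old), killed 24 h after saline (control) or after lipopolysaccharide (LPS) at 2.5 mg/kg, a bacterial cell wall component that causes acute lung injury. Lung cells carrying the epithelial surface protein EpCAM were sorted as living cells, the groups were marked with different hashtag antibodies, and all 4 were loaded together on 1 droplet lane. The experiment was repeated independently on another lane, which gives 8 libraries, numbered 1 and 2 by lane within each group. The sources used here name neither the number of mice per library nor the route of LPS, so a p-value measures the spread between these libraries only.

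Fatty acid synthesis starts from citrate, which ATP citrate lyase (Acly) splits into cytosolic acetyl-CoA. Acetyl-CoA carboxylase 1 (Acaca) turns it into malonyl-CoA, and fatty acid synthase (Fasn) joins these units into palmitate with NADPH that malic enzyme (Me1) helps to supply. Stearoyl-CoA desaturases (Scd1, Scd2) and elongases (Elovl1, Elovl6) then modify the chain, while the transcription factor SREBP-1 (Srebf1) induces the enzymes and the Mid1ip1 protein promotes the assembly of acetyl-CoA carboxylase into active filaments. Alveolar epithelial type II (AE2) cells use palmitate for the phosphatidylcholine of surfactant, the lipid film that keeps the air spaces open.

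The tables hold 85889264 unique molecular identifiers (UMIs, counted molecules) over 14048 barcodes, with 6228266 to 15435789 UMIs per library. After filters 11232 cells remained, of which 8842 were AE2-like, 904 ciliated-like, 515 alveolar macrophage-like and 177 club/secretory-like. AE2-like cells numbered 737 to 1417 per library, with a median of 5722 to 7092 UMIs per cell in the control libraries and 7602 to 9086 after LPS. No barcode occurred in more than 1 library of a lane, and 2 barcode sequences occurred in both lanes. The defining AE2 markers, 10 of 10 detected, summed to 314000 to 353000 UMIs per 1000000 (CPM) in control AE2-like cells and 103000 to 148000 after LPS. Of the markers of other classes, the 8 ciliated markers summed to 131 to 141 CPM in controls and 31.4 to 46.1 after LPS, the 7 club markers to 1750 to 5000 and 680 to 2270, and the 8 alveolar macrophage markers to 11.7 to 23.2 and 62.6 to 74.5. The 4 platelet markers, Pf4 the most abundant, went from 15.1 to 23.9 up to 133 to 203 CPM, and the 8 monocyte/macrophage markers from 21.1 to 46.5 down to 9.18 to 19.3. AE1 markers were also lower (2070 to 2290, then 1610 to 1890), B cell and endothelial markers slightly higher (34.2 to 42.2, then 42.9 to 58.0, and 19.3 to 23.9, then 25.9 to 35.4), and smooth muscle/pericyte markers stayed under 1 CPM. Their part in the results below was not tested.

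The start regions of the members are shown first, as a description of the sequences. Promoter sequences are from RefSeq (build GRCm38.p6), matched by symbol for 8 members with 12 start sites; Scd1 and Scd2 were not matched. NF-Y, a factor that binds CCAAT boxes, is known to act beside SREBP at lipogenic promoters. Printed below are the 250 bases before each start site that has CCAAT or its reverse complement in the last 100 of those bases, on the strand of the gene, with each such match in capitals. They lie at chr11:120824548-120824797 (minus strand) for Fasn, chr4:118427843-118428092 (plus strand) for Elovl1 and chr11:60210472-60210721 (minus strand) for the innermost of the 3 Srebf1 start sites.
Fasn: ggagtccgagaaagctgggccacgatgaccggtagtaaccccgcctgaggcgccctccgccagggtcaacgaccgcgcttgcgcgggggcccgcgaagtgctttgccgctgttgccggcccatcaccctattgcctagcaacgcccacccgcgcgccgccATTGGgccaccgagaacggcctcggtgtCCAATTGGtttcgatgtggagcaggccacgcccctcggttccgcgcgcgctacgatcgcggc
Elovl1: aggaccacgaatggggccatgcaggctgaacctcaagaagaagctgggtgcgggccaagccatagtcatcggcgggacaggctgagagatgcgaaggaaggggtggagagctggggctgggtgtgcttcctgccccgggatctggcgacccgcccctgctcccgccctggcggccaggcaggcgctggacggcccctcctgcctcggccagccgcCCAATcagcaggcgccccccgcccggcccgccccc
Srebf1: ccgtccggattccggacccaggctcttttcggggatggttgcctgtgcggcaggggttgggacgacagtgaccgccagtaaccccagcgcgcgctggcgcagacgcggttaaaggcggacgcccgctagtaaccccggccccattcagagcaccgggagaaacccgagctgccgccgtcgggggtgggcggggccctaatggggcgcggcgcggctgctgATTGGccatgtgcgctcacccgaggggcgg

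Fasn had 3 such matches, which begin 90, 62 and 59 bases before the start, and the latter pair overlap. Elovl1 and Srebf1 had 1 each in this stretch, 35 and 30 bases before the start. Over the full windows of 300 bases and both strands, CCAAT occurred at 6 of the 12 member start sites (in Acly, Elovl1, Fasn, Me1 and Srebf1), against 37.4% of all 32851 windows in the table. GGGCGG, the GC box of Sp1-type factors, occurred at 7 of 12, against 35.7% of all windows. The sterol regulatory element of the LDL receptor type, its looser core TCACNCCAC and the E-box CACGTG occurred at 0 of 12, against 0.0913%, 1.24% and 7.15% of all windows. No match says only that these letters are not in these windows.

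In AE2-like cells every member with enough counts to test fell after LPS, at both ages. That was 9 of the 10 members, Elovl6 being too low, and the fall ranged from 1.25-fold for Me1 to 4.52-fold for Mid1ip1 in the young and from 1.23-fold for Me1 to 5.02-fold for Scd1 in the old. Counts were added up over the AE2-like cells of each library and tested with edgeR's quasi-likelihood test (8 libraries, Benjamini-Hochberg adjustment over 11376 genes, threshold 0.05). By the same test 18.4% of all genes were lower after LPS in the young and 23.3% in the old, of 40.3% and 48.4% called in either direction. The median log2 fold change of the 9 members was -1.32 in the young and -1.41 in the old, beside -0.01 and -0.009 for all genes tested. For each of the 9, all 4 LPS libraries lay below all 4 control libraries, which was so for 23.6% of all genes.

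**Figure D1:**
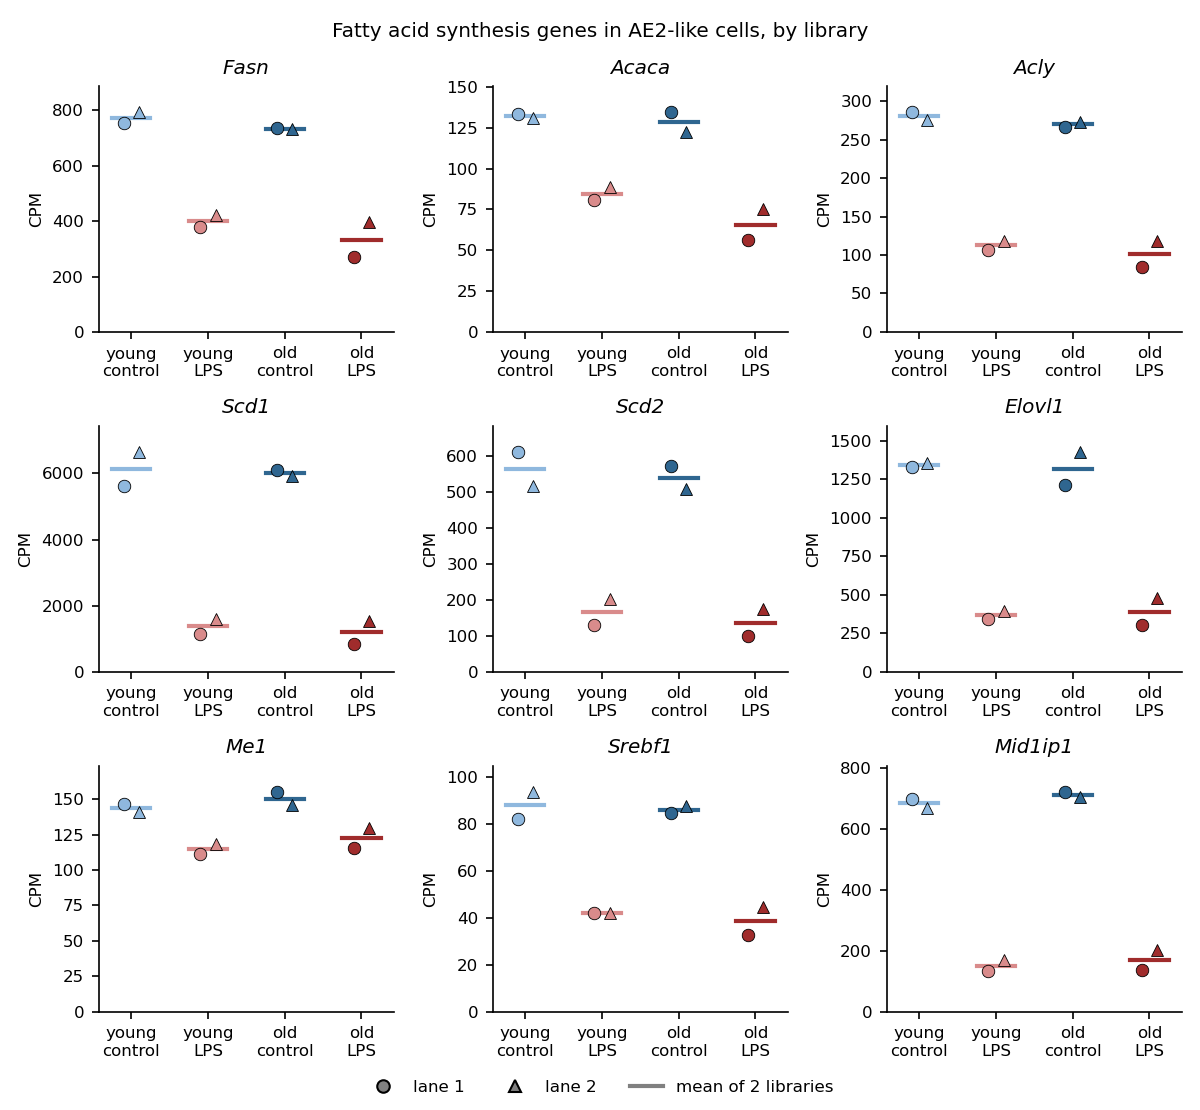
CPM (UMIs per 1000000, scaled with TMM) of 9 members in AE2-like cells, 1 panel per gene with its own axis from 0. Circles are lane 1, triangles lane 2 and bars the mean of 2 libraries; in every panel the 4 LPS libraries lie below the 4 control libraries.

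The enzymes that supply the pathway moved by different amounts. Acly, at chr11:100476353-100528000 on the minus strand, read 285.5 and 275 CPM in young control 1 and 2, 106 and 119 in young LPS, 267 and 273 in old control, and 84.4 and 119 in old LPS. The controls of both ages lay between 267 and 285.5 CPM, and every LPS library lay at 119 CPM or less. LPS changed it by -1.32 ± 0.13 (log2, SE) in the young (edgeR adjusted p = 3.3e-06) and -1.41 ± 0.13 in the old (edgeR adjusted p = 1.3e-06). Me1 read 147 and 141 CPM in young control and 111 and 118 in young LPS, and 155 and 146 in old control and 115 and 129.5 in old LPS. Its groups did not overlap, but the gap between the lowest control and the highest LPS library was the narrowest of the 9 members, 141 against 129.5 CPM. The fall was -0.33 ± 0.10 in the young (edgeR adjusted p = 0.013) and -0.29 ± 0.09 in the old (edgeR adjusted p = 0.017). Under DESeq2 Me1 missed the threshold at both ages (adjusted p = 0.060 and 0.083), and it also missed it without young control 1, young LPS 1 or young control 2 in the young (edgeR adjusted p = 0.090, 0.12 and 0.054) and without old control 1, old LPS 1 or old control 2 in the old (0.14, 0.075 and 0.0505).

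The committed step fell 1.56-fold in the young and 1.95-fold in the old, and the synthase 1.93-fold and 2.20-fold. Acaca, at chr11:84129672-84401651 on the plus strand, read 133 and 131 CPM in young control, 80.8 and 88.5 in young LPS, 134 and 122 in old control, and 56.1 and 75.4 in old LPS. The old LPS libraries were both below the young ones. The log2 fold change was -0.64 ± 0.12 in the young (edgeR adjusted p = 0.00069) and -0.96 ± 0.12 in the old (edgeR adjusted p = 1.2e-05). Fasn, at chr11:120805846-120824547 on the minus strand, read 755 and 793 CPM in young control, 379 and 423 in young LPS, 735.5 and 733 in old control, and 270 and 397 in old LPS. The controls covered 733 to 793 CPM, and the old LPS pair was farther apart than the young one. The response was -0.95 ± 0.15 in the young (edgeR adjusted p = 0.00057) and -1.14 ± 0.15 in the old (edgeR adjusted p = 0.00012).

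Scd1 gave the deepest fall among the enzymes at both ages. This desaturase, at chr19:44394455-44407879 on the minus strand, puts the first double bond into saturated acyl-CoAs and was the member with the most UMIs, 210936 over the AE2-like cells. It read 5626 and 6638 CPM in young control, 1151 and 1596 in young LPS, 6100 and 5913 in old control, and 846 and 1549 in old LPS. The lowest control library, at 5626 CPM, stood far above the highest LPS library, at 1596. Its response on the log2 scale was -2.16 ± 0.35 in the young (edgeR adjusted p = 0.0087) and -2.33 ± 0.35 in the old (edgeR adjusted p = 0.0056). Scd2, its neighbour at chr19:44293674-44306864 on the plus strand, catalyses the same reaction. It read 611 and 517 CPM in young control, 131 and 201.5 in young LPS, 572 and 508 in old control, and 98.7 and 174 in old LPS. Lane 1 was the higher lane in the controls of both ages and the lower lane after LPS. The log2 fold change was -1.76 ± 0.36 in the young (edgeR adjusted p = 0.018) and -1.98 ± 0.36 in the old (edgeR adjusted p = 0.011), and the young call was lost without young control 1 (edgeR adjusted p = 0.062) or young LPS 1 (0.051).

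Of the elongases, Elovl1, which extends saturated and monounsaturated very long chains, was abundant and Elovl6, which extends palmitate to stearate, was nearly absent from AE2-like cells. Elovl1, at chr4:118428093-118432953 on the plus strand, read 1333 and 1359 CPM in young control, 345 and 394 in young LPS, 1213 and 1427 in old control, and 302 and 477 in old LPS. The groups were far apart, with 1213 CPM as the lowest control and 477 as the highest LPS library. The response was -1.87 ± 0.21 in the young (edgeR adjusted p = 0.00058) and -1.76 ± 0.21 in the old (edgeR adjusted p = 0.00057). Elovl6 had 2 UMIs in all AE2-like cells, 1 in each old control library, and 0 in the LPS libraries, where a count of 0 allows up to 0.0735 CPM (3 counts over the 4 libraries, counting error only). The gene was detected elsewhere in the same suspension, with 24 UMIs in 177 club/secretory-like cells and 25 in 904 ciliated-like cells. It failed the filter on low counts and was not tested.

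Both regulators fell. Srebf1, at chr11:60199089-60222581 on the minus strand, read 82.0 and 93.4 CPM in young control, 42.2 and 41.9 in young LPS, 84.4 and 87.3 in old control, and 32.8 and 44.3 in old LPS. The young LPS libraries were nearly equal, and all LPS libraries lay well under the controls. The log2 fold change was -1.07 ± 0.13 in the young (edgeR adjusted p = 7.1e-06) and -1.15 ± 0.12 in the old (edgeR adjusted p = 1.9e-06). Mid1ip1, at chrX:10715013-10719690 on the plus strand, read 696 and 669 CPM in young control, 134 and 168 in young LPS, 720 and 704 in old control, and 137 and 203 in old LPS. Controls of both ages covered 669 to 720 CPM. Its log2 fold change was -2.17 ± 0.18 in the young (edgeR adjusted p = 2.5e-05) and -2.06 ± 0.18 in the old (edgeR adjusted p = 2.6e-05).

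Some member loci overlap other genes in GENCODE M21, and whether the authors' counting used strand is not stated in the sources used here. Srebf1 overlaps Rai1 and Elovl1 overlaps Cdc20, both on the opposite strand, and these partners had 827 and 260 UMIs in AE2-like cells beside 3893 for Srebf1 and 50309 for Elovl1. Me1 (chr9:86581371-86695953, minus strand, 8633 UMIs) overlaps the antisense gene A330041J22Rik, which had 141. Scd1 and Scd2 are close paralogs, and reads common to both could be split by the counting.

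The order of the levels depended on the scale. The kit reads the 3′ end of transcripts, so CPM divided by exon length understates long transcripts; on that scale the order in young control AE2-like cells was Scd1 (1253 CPM per kb), Elovl1 (494), Mid1ip1 (321), Scd2 (103), Fasn (70.7), Acly (53.1), Me1 (37.4), Srebf1 (15.6) and Acaca (7.73). In young LPS the order was Scd1 (281), Elovl1 (135.5), Mid1ip1 (71.0), Fasn (36.6), Scd2 (30.4), Me1 (29.8), Acly (21.3), Srebf1 (7.46) and Acaca (4.96). On that scale Scd2 stood above Fasn in young control and below it in young LPS, and Acly stood above Me1 and then below it. Without division by length Scd2 was below Fasn in young control already (564 and 774 CPM), and Acly and Me1 were close in young LPS (112 and 115 CPM), so no change of order is read from these pairs. The young LPS values of Scd2 and Me1 per kb did not differ beyond the spread of Scd2, whose libraries read 166 CPM ± 50.1 (SD, n = 2).

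Age made no difference that passed the test for any member. In controls, old against young, the log2 differences of the 9 members ran from -0.08 (Fasn) to 0.06 (Me1), with 0 called (0.615% of all genes called in either direction, 0.255% higher and 0.360% lower) and 0 at an unadjusted p under 0.05 in edgeR. DESeq2 also called 0. The intervals of 2 SE either side reached from -0.75 to 0.64 over the 9 members, the widest being those of Scd1 and Scd2. For Me1 the interval was -0.13 to 0.26 and for Srebf1 -0.28 to 0.21.

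After LPS the old against young differences ran from -0.36 ± 0.12 for Acaca to 0.17 ± 0.18 for Mid1ip1, again with 0 members called (4.06% of all genes called, 1.64% higher and 2.42% lower) by edgeR and by DESeq2, and 1 member, Acaca, at an unadjusted p under 0.05 in each (edgeR adjusted p = 0.12 for Acaca). The response to LPS itself, old minus young, ran from -0.32 ± 0.17 for Acaca to 0.11 ± 0.25 for Mid1ip1, with 0 called by edgeR or DESeq2 (0.686% of all genes called in edgeR, 0.343% in each direction) and 0 at an unadjusted p under 0.05. These comparisons rest on single libraries. Without old LPS 2, the old against young difference after LPS was -0.57 for Fasn, -0.59 for Acaca, -0.41 for Acly and -0.36 for Srebf1. The response, old minus young, was then -0.49 for Fasn and -0.55 for Acaca. Without old LPS 1, the old against young difference after LPS was 0.37 for Elovl1 and 0.43 for Mid1ip1. Each of these fits leaves 1 old LPS library, so no call is read from them. With no filter on low counts Acaca was called lower in the old after LPS (edgeR adjusted p = 0.019).

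The old LPS libraries differed from each other in the same direction for every member. The lane 2 library was above the lane 1 library for 9 of 9 members in old LPS and 8 of 9 in young LPS, against 3 of 9 in old control and 4 of 9 in young control, and the lane 2 share over all genes was 48.9% to 51.2% in these groups. Within lane 1 the old LPS response of Scd1 was -2.85 and within lane 2 it was -1.93 on the log2 scale. For Fasn the same values were -1.45 and -0.89, and for Acaca -1.26 and -0.70. In the young the lanes were closer, at -2.29 and -2.06 for Scd1 and -0.99 and -0.91 for Fasn. For all 9 members and both ages LPS was below control within each lane.

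**Figure D2:**
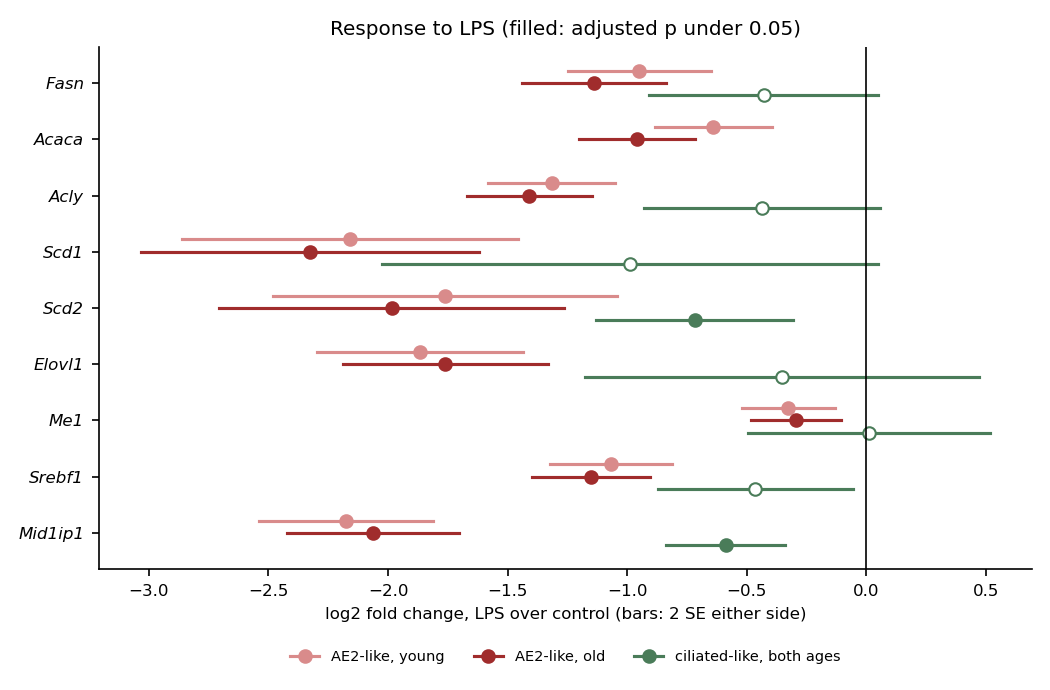
log2 fold change of LPS over control by edgeR for 9 members, as points with bars of 2 SE either side; filled points passed an adjusted p of 0.05. All 18 AE2-like points are filled and below 0, whereas 2 of 8 ciliated-like points, Scd2 and Mid1ip1, are filled.

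The LPS libraries also differed in how many of their cells clustered with control cells. Cells were also clustered with the members and all lipid list genes left out, which left 1992 of the 2000 variable genes. Of the resulting AE2-like clusters, 5 held mostly control cells. Those clusters took 98.6% to 99.4% of the AE2-like cells in the control libraries, 3.98% and 10.6% in young LPS 1 and 2, and 3.47% and 23.9% in old LPS 1 and 2. Both lane 2 LPS libraries, and old LPS 2 most, held more such cells. In old LPS 2 the dominant hashtag held a median of 98.69% of the hashtag counts both in these cells and in the other AE2-like cells. Their median depth was 6468 UMIs, against 10040 in the other AE2-like cells, and such cells were also shallower in the other LPS libraries. Cells of these clusters in the control libraries had medians of 5737 to 7069 UMIs. Within old LPS 2 these cells read 2642 CPM for Scd1 and 612 for Fasn, and the remaining AE2-like cells read 1282 and 341. With such cells left out, Scd1 in old LPS 1 and 2 was 790 and 1282 CPM and Fasn 254.5 and 341, so lane 2 was still higher, as it was for 9 of 9 members in the old and 8 of 9 in the young. Whether these are LPS cells with a control pattern or control cells assigned to the wrong library was not tested beyond the hashtag share. The values of old LPS 2 and the age comparisons after LPS include them. This selection of cells was made after the data were seen.

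Other cell classes carried these transcripts at lower median levels. The levels are CPM within class without scaling factors, over libraries with at least 20 cells of the class, which are 4 control and 4 LPS libraries for AE2-like and ciliated-like cells but 4 control and 1 LPS library for alveolar macrophage-like cells. In control libraries Scd1 had a median of 6141 CPM in AE2-like cells, 361 in alveolar macrophage-like cells and 187 in ciliated-like cells, and in LPS libraries it had 1338, 128 (1 library) and 106. Fasn read 751, 81.5 and 52.9 in controls and 385, 58.4 and 34.1 after LPS. The AE2-like range of both genes stood clear of the ciliated-like range in each condition. Counts were not corrected for free RNA, and Sftpc, which ciliated cells should lack, stood in ciliated-like cells at a median of 4.82% of its AE2-like level. Scd1 at 6.10% (2.72% to 10.5%) overlapped the range of Sftpc (1.97% to 7.97%), and Fasn stood at 8.68% (5.56% to 16.8%). Within lane 1, Scd1 stood above Sftpc in young control (2.722% and 2.12%), old control (3.315% and 1.968%) and old LPS (8.617% and 4.4%). In young LPS of that lane it stood below (6.326% and 7.967%). How much of the Scd1 in ciliated-like cells was free RNA was not tested.

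Both regulators were present in ciliated-like cells far above the share of Sftpc, but some enzymes also stood above it. Scd2 stood at 12.8% to 45.4% of the AE2-like level, Acly at 12.2% to 35.3% and Me1 at 12.5% to 34.6%. The ranges of Elovl1 and Acaca overlapped that of Sftpc, as those of Scd1 and Fasn did. Mid1ip1 stood there at 30.4% to 33.7% of the AE2-like level of the same library in the 4 controls and at 78.6% to 103% in the 4 LPS libraries. The AE2-like level was thus well above the ciliated-like level in controls, and the classes were close after LPS. Srebf1 stood at 60.6% to 84.9% in controls and 70.7% to 133% after LPS. In young LPS 1 and old LPS 1 the ciliated-like level of Srebf1, 55.5 and 40.5 CPM, was above the AE2-like level of 41.8 and 32.1. In alveolar macrophage-like cells, mostly from controls, Acly stood at a median of 46.1% of the AE2-like level and Srebf1 at 56.6%, while Sftpc stood at 12.2%.

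**Figure D3:**
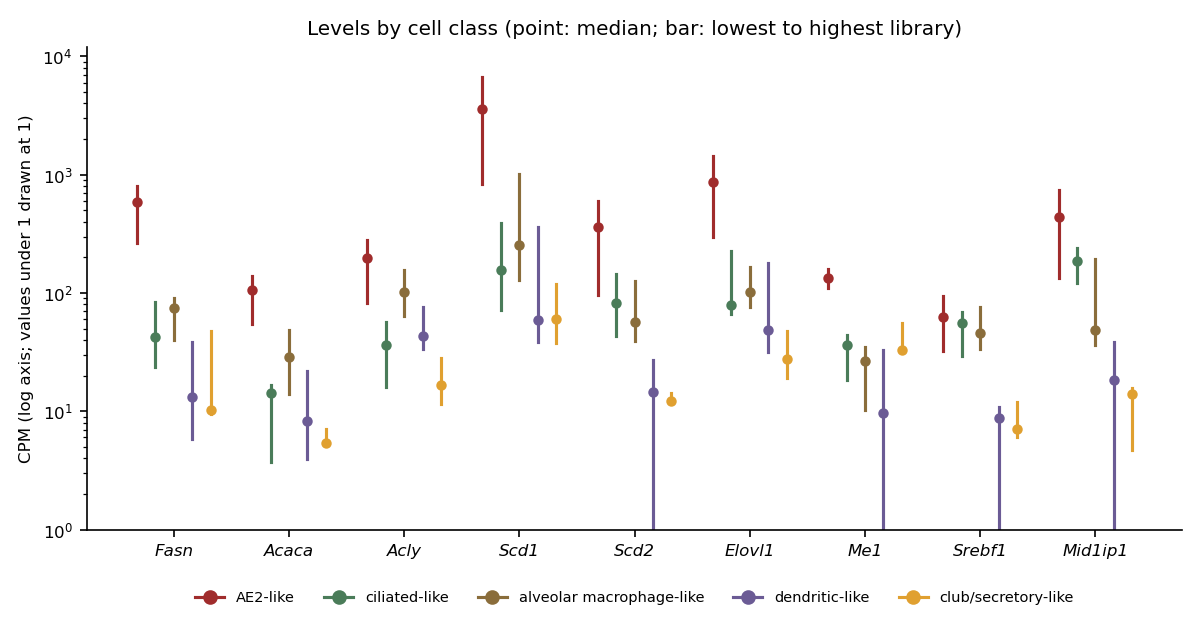
CPM of 9 members in 5 cell classes on a log axis, with the median as a point and the lowest to highest library as a bar (8 libraries for AE2-like and ciliated-like, 5 for alveolar macrophage-like, 4 for dendritic-like and 3 for club/secretory-like cells, the latter pair of classes from LPS libraries alone). AE2-like cells have the highest median for each gene, but their bars, which span control and LPS libraries, overlap a bar of another class for Srebf1, Mid1ip1, Scd2, Acly and Scd1.

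Of 8 members tested in ciliated-like cells over both ages, 2 fell, Mid1ip1 and Scd2 (7.71% of 7907 genes were called lower, 9.64% higher and 17.4% in either direction), 0 rose and 3 had an unadjusted p under 0.05. Mid1ip1 read 215.5 and 214.5 CPM in young control, 147 and 152 in young LPS, 219 and 238 in old control, and 128 and 168 in old LPS. Its LPS and control libraries did not overlap, and the log2 fold change was -0.59 ± 0.12 (edgeR adjusted p = 0.00079). Scd2 read 90.4 and 146 CPM in young control, 59.5 and 95.5 in young LPS, 73.4 and 128 in old control, and 45.9 and 57.4 in old LPS. These libraries overlapped between the groups, and the log2 fold change was -0.72 ± 0.21 (edgeR adjusted p = 0.015). The Scd2 call was lost without young LPS 1, young control 2 or old control 2 (edgeR adjusted p = 0.094, 0.073 and 0.060). With 52 to 266 ciliated-like cells per library, the 8 members had 186 to 879 UMIs each over 8 libraries, which limits the precision. Free RNA from AE2 cells also enters these sums, and its part in these calls was not tested.

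The difference of the responses was tested directly, over AE2-like and ciliated-like sums in 1 edgeR fit. The fall was deeper in AE2-like cells for 3 of 9 members (7.61% of 12238 genes were called lower, 5.90% higher and 13.5% in either direction), namely Mid1ip1 by -1.64 ± 0.17 (edgeR adjusted p = 8.4e-08), Acly by -1.03 ± 0.26 (0.0045) and Srebf1 by -0.76 ± 0.22 (0.017). The estimates for the other 6 members with a usable fit were also below 0, from -0.42 for Me1 to -1.57 for Elovl1 (edgeR adjusted p = 0.28 and 0.053). With the library as a block, which pairs the 2 classes of a library, 7 members were called, the added ones being Fasn, Scd1, Scd2 and Elovl1. The estimate of Scd1 was -1.37 without and -1.43 with the block, but its edgeR adjusted p went from 0.16 to 1.5e-21. The share of all genes called with the block is not given here, so the 7 calls are not read as a result about the members. Mid1ip1 kept its call without each library in turn, whereas Acly lost it without young control 1, young LPS 1 or old control 1 (edgeR adjusted p = 0.054, 0.40 and 0.064). Srebf1 lost it without young LPS 1, old control 1, old LPS 1 or young control 2 (edgeR adjusted p = 0.44, 0.11, 0.062 and 0.094) and with library totals in place of scaling factors (0.070).

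Between single AE2-like cells, each cell was thinned at random to 2000 UMIs so that depth was equal, which left out 3 to 31 shallower cells per library. Scd1 was then found in 98.8% to 99.3% of the cells in control libraries and in 70.1% to 87.6% after LPS (unthinned 99.8% to 100% and 95.5% to 98.9%, at 5722 to 9086 median UMIs per cell). In ciliated-like cells, at 4864 to 6769 median UMIs per cell, the unthinned share of Scd1 was 20.3% to 46.4%. Mid1ip1 was found in 63.7% to 68.9% and then 22.1% to 30.8% (unthinned 89.0% to 92.9% and 51.6% to 66.3%), and Scd2 in 60.7% to 67.4% and then 17.6% to 34.3%. Fasn went from 71.8% to 75.4% in controls to 42.1% to 54.4%, and Elovl1 from 84.0% to 87.8% to 40.6% to 53.2%. For 9 of 9 detected members every LPS library was below every control library, against 15.5% of all genes, and the count was 9 at 4000 UMIs per cell and 8 at 1000, where Me1 overlapped (12.5% in old LPS 2, 12.1% in young control 2). For Me1 the unthinned share went the other way, 52.8% to 62.2% in controls and 54.9% to 64.3% after LPS, where cells were deeper, and no order is read from it.

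**Figure D4:**
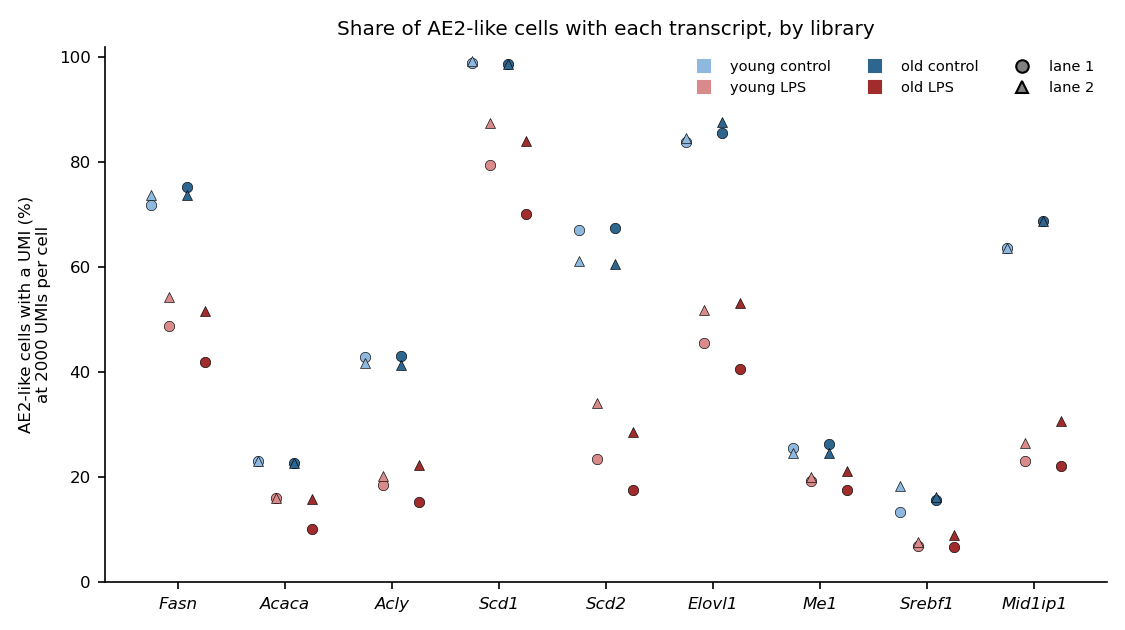
Percent of AE2-like cells with at least 1 UMI of each member after thinning to 2000 UMIs per cell, 1 point per library (circles lane 1, triangles lane 2). For all 9 members the 4 LPS points lie below the 4 control points, with the widest gap for Mid1ip1.

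Between cells, the variance relative to the mean was highest for Scd1 and near counting noise for the weaker members. This ratio grew with the mean count: for Scd1 in controls its median was 3.59 at 1000 UMIs per cell, 5.91 at 2000 and 10.45 at 4000. The order of the members is therefore not separated from their levels, and Scd1 is not read as more variable than the others. The variance over the mean of thinned counts, which is 1 for pure counting noise, was 5.29 to 6.26 for Scd1 in control libraries and 2.71 to 3.65 after LPS, at means that also differed. It was 1.57 to 1.88 for Elovl1, 1.47 to 1.62 for Mid1ip1 and 1.22 to 1.51 for Fasn in controls, and 0.968 to 1.09 for Srebf1. The tenth of cells highest in Scd1 held 24.1% to 25.6% of its UMIs in controls and 31.3% to 36.9% after LPS.

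Members rose and fell together across cells only weakly. The highest correlation among the 36 pairs in controls was that of Fasn and Scd1, with a median Pearson r of 0.31 over 4 libraries (0.27 to 0.36; 724 to 1130 cells each), and it was 0.23 (0.17 to 0.33) after LPS. Scd1 and Scd2 followed with 0.26 and 0.21. The median over all pairs was 0.05 in controls and 0.06 in the 28 pairs that could be computed after LPS. These are descriptions in sparse counts of cells that share a library, and the weak ones are no finding. Split at the quartiles of Scd1, the highest cells had 1.75 to 2.31 times the Fasn UMIs of the lowest cells in control libraries and 1.79 to 2.41 times after LPS. For Acly the ratio was 1.84 to 2.11 in controls, for Scd2 1.59 to 2.50, and for Mid1ip1 1.42 to 1.76 in controls and 1.97 to 2.42 after LPS. Srebf1 gave 0.98 to 1.35 in controls.

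The clusters found without lipid genes show where the levels lay. In controls the cells of a cluster led by Bex2 and Cst8 (35.6% to 47.3% of AE2-like cells) read 6898 to 8073 CPM of Scd1, and those of a cluster led by Scd1 and Hc (10.0% to 18.0%) read 6889 to 7885. A cluster led by Lgi3 and Sftpc (36.8% to 39.5%) read 3980 to 5367, and a small one with the proliferation genes Ube2c and Cdc20 among its leaders (2.15% to 4.24%) read 2058 to 3530. Fasn read 821 to 897, 813 to 925, 632 to 698 and 383 to 488 CPM in these clusters. The ranges of the first 2 clusters overlapped for both genes, so no order is read between them. Scd1 is among the leading genes of both the Bex2 and Cst8 cluster and the Scd1 and Hc cluster, and Mid1ip1 is among the top 10 genes of each, so their height there is no finding. Values here are CPM without scaling factors in libraries with at least 20 cells of a cluster.

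After LPS the Csf3 and Cxcl2 cluster and the Gbp2 and Cxcl10 cluster had the lowest median Scd1, Fasn and Mid1ip1. The former, whose leading genes code for neutrophil-directing factors, was found with at least 20 cells in the 2 old LPS libraries only and read 424.5 and 705 CPM of Scd1 and 156 and 190 of Fasn. The latter, led by interferon-response genes (4.96% to 31.7% of AE2-like cells) read 557 to 912 of Scd1, 206 to 257 of Fasn and 61.9 to 74.0 of Mid1ip1. The cluster led by Itih4 and Npnt (9.37% to 31.5%) read 1770 to 2239 of Scd1, 463 to 554 of Fasn and 221 to 247 of Mid1ip1. LPS cells that fell into the Bex2 and Cst8 cluster, 157 cells of the lane 2 libraries, read 3525 (young) and 2624 (old) of Scd1, below the 6898 to 8073 of control cells in that cluster. Acly, Elovl1, Fasn, Mid1ip1 and Scd2 in these LPS cells were also below the control range of that cluster. Acaca was above it, at 158.7 and 159.9 CPM beside 136.5 to 152.8 in controls. Me1 and Srebf1 overlapped it, so not every member was lower within the cluster. Cluster shares differed by library, and their part in the differences between libraries was not tested.

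**Figure D5:**
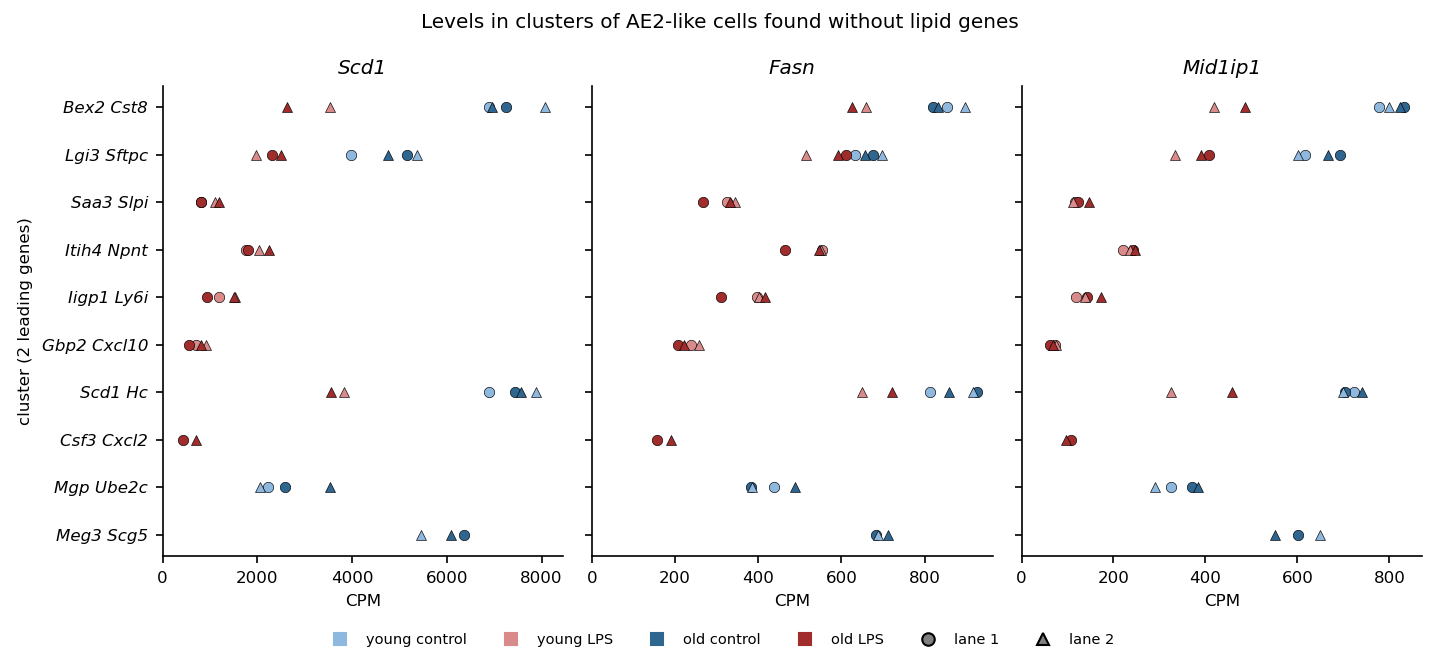
CPM of Scd1, Fasn and Mid1ip1 in each cluster of AE2-like cells found without lipid genes, 1 point per library with at least 20 cells (circles lane 1, triangles lane 2). The Gbp2 and Cxcl10 cluster and the Csf3 and Cxcl2 cluster have the lowest medians in each panel, and in the 3 control-type clusters with LPS points these lie below the control points of the same cluster.

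The genes whose pattern across AE2-like cells was most like that of the summed members differed between control and LPS libraries, apart from Slc34a2, a phosphate transporter of AE2 cells. In the 4 control libraries these were Fabp5 (mean r = 0.47), Npc2 (0.44), Slc34a2 (0.41), Lrg1 (0.36), Lamp3 (0.33) and Lpcat1 (0.31) of 4480 genes compared. In the 4 LPS libraries they were Slc34a2 (0.66), Sftpb (0.57), Sftpc (0.53), Sfta2 (0.48), Abca3 (0.44) and Hc (0.43). The correlations are across cells of a library that share depth, and carry no p. Scd1 was the largest part of the sum (in young control 6132 CPM, beside 1346 for the next, Elovl1), so the ranking leans on Scd1. A gene absent from either list may rank just below it, so no difference between the conditions is read from them. By edgeR, Fabp5, a fatty acid binding protein, rose after LPS (0.53 ± 0.10 in the young, 0.48 ± 0.09 in the old), as did Lrg1, and the phospholipid transporter Abca3 fell (-0.91 ± 0.17 and -1.20 ± 0.17).

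The genes around the pathway did not all fall, and lists of them were counted in AE2-like cells by the same edgeR calls (18.4% lower and 21.9% higher over all genes in the young, 23.3% and 25.1% in the old). Of 8 genes that process SREBP, 3 fell and 1 rose in the young and 4 fell and 1 rose in the old. Scap, the escort of SREBP to the Golgi, fell by 0.78 ± 0.14 and 0.62 ± 0.13 on the log2 scale, Insig1, which retains SREBP in the endoplasmic reticulum and is itself a target, fell by 0.60 ± 0.18 and 1.21 ± 0.17, and Insig2 rose by 0.60 ± 0.10 and 0.56 ± 0.10. Of 15 lipogenic transcription factors and coregulators, 5 fell and 4 rose in the young and 4 fell and 3 rose in the old, among them Cebpa (-1.28 ± 0.17 and -1.36 ± 0.17) and Cebpb (0.90 ± 0.12 and 1.27 ± 0.12).

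Among enzymes beside the members, both directions occurred. Of 10 genes of acetyl-CoA and malonyl-CoA supply, 1 fell and 3 rose in the young and 4 fell and 2 rose in the old; the citrate carrier Slc25a1 fell by 0.51 ± 0.11 and 0.59 ± 0.10, and Prkab1, a subunit of the kinase AMPK that inhibits acetyl-CoA carboxylase, rose by 1.35 ± 0.13 and 1.47 ± 0.13. Of 7 tested genes listed under NADPH supply 2 fell in each age, and 0 rose in the young and 3 in the old, with Idh1 at -0.47 ± 0.12 and -0.48 ± 0.11. Tkt, among those that fell at both ages, and Taldo1, among those that rose in the old, do not make NADPH themselves. Of 12 tested elongation and desaturation enzymes 4 fell in each age and 3 and 5 rose. The desaturase Fads1 fell by 1.04 ± 0.24 and 1.29 ± 0.23, and Hacd2, a dehydratase of the elongation cycle, rose by 1.51 ± 0.12 and 1.75 ± 0.12. Of 25 tested genes of glycerolipid synthesis 7 and 8 fell and 2 and 4 rose, with the surfactant phosphatidylcholine enzyme Lpcat1 at -1.11 ± 0.10 and -1.03 ± 0.10.

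Other lipid routes also held both directions. Of 20 fatty acid oxidation genes 7 rose and 1 fell in the young and 9 rose and 2 fell in the old. Acadl, the long-chain acyl-CoA dehydrogenase, rose by 1.24 ± 0.11 and 1.53 ± 0.11, and Hadh by 0.78 ± 0.10 and 0.52 ± 0.10. Of 14 tested genes of lipid uptake and droplets 3 and 4 rose and 2 and 5 fell. The droplet coat gene Plin2 rose by 0.66 ± 0.11 and 1.13 ± 0.11, while lipoprotein lipase, Lpl, fell by 2.23 ± 0.45 and 2.45 ± 0.44. Of 22 tested cholesterol synthesis genes 4 fell and 5 rose in the young and 8 fell and 3 rose in the old. Hmgcs1, the HMG-CoA synthase, was the 1 gene of all these lists whose response differed between the ages (old minus young -0.66 ± 0.14, edgeR adjusted p = 0.041). Plin2 was lower in old than in young controls (-0.71 ± 0.11, edgeR adjusted p = 0.0060).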

How the data were processed

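Single-cell RNA was measured with 3′ droplet libraries from EpCAM-sorted mouse lung cells, 8 libraries in 4 groups of 2. The authors deposited raw UMI counts for each gene in each barcode. The submitters' processing notes name bcl2fastq, Cell Ranger 3.1.0 with STAR, build mm10, R 3.6.3 and Seurat in versions 3.1 and 3.1.5, and how barcodes were assigned to hashtags is not stated in the sources used here. The 4 hashtag rows were kept out of all sums. The members and gene lists were chosen with earlier results of these data known.

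Kept barcodes had at least 500 genes and at most 20% mitochondrial UMIs, which removed 2803 of 14048. Scrublet in scanpy 1.11.5 marked 13 doublets, too few to have worked, so an alternative dropped the top 3% by doublet score. Cells were clustered with leidenalg 0.10.2 (2000 variable genes, 30 components, 20 neighbours, resolution 1) and a cluster was called X-like from marker lists. Free RNA was not corrected for.

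Counts were added per library and class, filtered with filterByExpr, scaled with TMM (factors 0.980 to 1.03 in AE2-like sums) and tested by edgeR 4.0.16 (R 4.3.3) with robust quasi-likelihood, all 8 libraries together, modelled by group (4 residual degrees of freedom). Each SE was derived from the fold change and its F statistic. DESeq2 1.42.0, other scaling, no filter, each library left out, the lane as a block, and other cell filters or clusters were alternatives. The scripts were tested on simulated data. A library number marks a shared lane and experiment, per the labels, and so pairs the groups; deviations from group means correlated by -0.03 to 0.14 within a lane.

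Named genes are the members, up to 2 called genes per direction of each list with at least 20 CPM and the largest change, and the 6 genes per treatment most correlated with the summed members; the young value of Insig1 and the ciliated-like cholesterol list were chosen after their values were seen, and not all named genes are printed. Coordinates are of GRCm38. 1 further deposited text file was not used here.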

Additional observations from a re-analysis of the deposited data

Results flagged for a closer look

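The response to LPS differed between AE2-like and ciliated-like cells for 3 members by edgeR's test of the difference itself. That fit did not pair the 2 class sums of a library. With the library as a block more members were called, in a fit whose share over all genes is not given here. On the log2 scale the fall in AE2-like cells was deeper by -1.64 for Mid1ip1, by -1.03 for Acly and by -0.76 for Srebf1. RNA free in the suspension adds AE2 transcripts to ciliated-like cells and moves with these values, since the Sftpc level there was 1.97% to 7.97% of the AE2-like level; its part was not tested. With 2 libraries per group no sample can be tested as standing apart from its group.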

How the results depend on the processing

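All 153 alternative values of single members were below 0 for LPS against control at each age, and 147 (young) and 149 (old) of them were called. These values include fits without a library of the other age, which keep all the compared libraries and could change little. The lane as a replicate block, which pairs the libraries of an experiment, left 9 of 9 members called lower at both ages. Blocks changed no count by over 1.5 times, except in the difference between the classes. There the library as a block raised the count of members with a deeper fall in AE2-like than in ciliated-like cells from 3 to 7. The share of all genes called with that block is not given here. Without the low-count filter 1 member was called lower in old than young LPS. Me1 in ciliated-like cells turned from 0.01 to -0.080 with library totals in place of scaling factors.

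Leaving out each library in turn gave 0 to 4 members called lower in old than young LPS, 0 to 2 with a deeper response in the old, 1 to 3 called lower in ciliated-like cells and 1 to 5 in the difference between the classes. Old against young LPS then ran from -0.41 to 0.075 for Acly, -0.29 to 0.37 for Elovl1, -0.36 to 0.078 for Srebf1 and -0.14 to 0.43 for Mid1ip1, and the response of Fasn, old minus young, from -0.49 to 0.062. In ciliated-like cells Elovl1 ran from -0.76 to 0.14 and Me1 from -0.12 to 0.48. The cause was not tested. A group left with 1 library was assumed to vary like the others, so members called in these fits are not counted here. With 2 libraries per group and few UMIs in ciliated-like cells, smaller differences were not detectable.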

Other observations

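Cholesterol synthesis genes, whose control by SREBP-2 runs beside that of the fatty acid genes by SREBP-1, rose in ciliated-like cells after LPS. By edgeR 13 of 17 tested genes of the list were higher and 1 lower over both ages (9.64% and 7.71% of all genes), with a median log2 fold change of 1.09 beside -0.01 for all genes. In the test of the difference between AE2-like and ciliated-like cells, 15 of 22 genes of the list were lower in AE2-like cells and 1 higher (7.61% and 5.90% of all genes). Of 7 tested SREBP-processing genes 3 rose and 0 fell in ciliated-like cells. The list was chosen with results of these data known, and its counts are a description.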
